A study of Macaca mulatta with 12 samples.

Results

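B cells that carry a kappa light chain were compared with B cells that carry a lambda light chain within 1 annotated cell population of rhesus macaque blood, Naive B cells 1. Cells were taken when the B cell receptor library held exactly 1 productive heavy contig, of the constant gene IGHM or IGHD, and exactly 1 productive light contig, which set the class as kappa (IGK) or lambda (IGL). The rule kept 1308 of the 1614 Naive B cells 1 and of the 13849 cells of the series, 579 of them kappa and 729 lambda. Blood mononuclear cells came from 6 healthy, unmanipulated rhesus macaques of 2 to 3 years of age, 2 males in batch 1 and 4 females in batch 2, and each animal gave an expression library (read from the 5' end of transcripts) and a receptor library of the same cells. Every animal gave both classes, so that sex and batch, which cannot be told apart between animals, are the same on both sides of each kappa to lambda difference.

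An antibody has 2 identical heavy and 2 identical light chains, and the light chain is built from either the kappa or the lambda locus. In developing B cells the kappa locus usually rearranges first, by joining a variable (V) to a joining (J) segment, and lambda rearrangement tends to follow where kappa gave no usable or an autoreactive receptor. A mature B cell normally shows 1 light chain type at its surface, a property called isotype exclusion, and the remaining genes of both types of cell are shared. The complementarity-determining region CDR3 spans the junction of the segments and lies at the centre of the antigen-binding site.

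The light chain differed by construction, and its sequences show what separated the classes. The 3 light CDR3 sequences found in the most animals are given for each class, 5′ to 3′, with the codons of the conserved first cysteine and last phenylalanine in capitals.
kappa CDR3 1: TGCtatcagcatagcagcgggtggacgTTC
kappa CDR3 2: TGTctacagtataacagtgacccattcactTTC
kappa CDR3 3: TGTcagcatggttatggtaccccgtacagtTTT
lambda CDR3 1: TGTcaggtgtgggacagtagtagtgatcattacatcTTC
lambda CDR3 2: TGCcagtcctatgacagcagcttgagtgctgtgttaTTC
lambda CDR3 3: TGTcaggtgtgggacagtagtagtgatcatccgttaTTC
The first kappa sequence stood in 7 cells of 5 animals, the second in 7 cells of 5 animals and kappa CDR3 3 in 10 cells of 4 animals. They were joined mostly from IGKV3-10 with IGKJ1, IGKV1-43 with IGKJ3 and IGKV1-74 with IGKJ2. The first lambda sequence stood in 16 cells of all 6 animals, the second in 11 cells of 5 and lambda CDR3 3 in 9 cells of 5. IGLV3-36 gave most cells of lambda CDR3 1 and 3, and IGLV1-85 all 11 cells of lambda CDR3 2. Each of these 6 light sequences was paired with a different heavy CDR3 in every cell that held it.

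Identical light CDR3 nucleotide sequences were common between animals in both classes. Of 334 distinct kappa sequences, 91 were found in 2 or more animals and were carried by 52.2% of the kappa cells. Of 382 distinct lambda sequences, 116 were found in 2 or more animals and were carried by 59.7% of the lambda cells. Within each class no heavy CDR3 sequence was found in more than 1 animal, among 578 distinct sequences in kappa cells and 724 in lambda cells. Sharing between kappa cells of an animal and lambda cells of another was not counted. Only 6 groups of cells, 12 cells in all, shared a heavy V gene and heavy CDR3 within an animal.

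The stretch after the CDR3, framework 4, comes from the J segment, and its last 7 bases, in capitals, were the same in IGKJ1 to IGKJ4 and differed from those of the lambda segments. The most frequent sequence of each J gene is shown for those that make the contrast.
IGKJ2: ggccaggggaccaaagtggagATCAAAC
IGKJ4: ggcggagggaccaaggtggagATCAAAC
IGLJ1: ggtgctgggacccggctcaccGTCCTAG
IGLJ3: ggaggagggacccggctgaccGTCCTAG
IGLJ6: ggaagtggcaccaagttgaccGTCCTCG
The IGKJ4 sequence stood in 81.1% of the 159 cells of that segment and the IGKJ2 sequence in 99.4% of 154. The IGLJ1 sequence stood in 99.0% of 193 cells, and those of IGLJ3 and IGLJ6 in every cell of their segments. IGLJ2 had the same framework 4 as IGLJ3, so that a call between these 2 segments rests on the bases before it.

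Kappa cells were the smaller class in 5 of 6 animals. Kappa cells and lambda cells numbered 161 and 230 in male 1, 105 and 161 in male 2, 102 and 113 in female 1, 31 and 42 in female 2, 149 and 135 in female 3, and 31 and 48 in female 4. The kappa share was 43.7% ± 5.22 (SD, n = 6 animals), with a median of 41.8%, and female 3 alone lay above 50%, at 52.5%. The exact 95% binomial interval, which covers counting error only, lay below 50% in male 1 (36.3 to 46.2%) and male 2 (33.6 to 45.6%) and held 50% in the females. By the same rule the share was 49.9% ± 12.7 in M-MBC 1 and 49.7% ± 7.24 in CD11c+ MBC 1, the annotated subtypes used here for comparison. It was lower in Naive B cells 1 than in M-MBC 1 in 5 of 6 animals, by a mean difference of -6.16 percentage points (exact two-sided sign-flip permutation test, p = 0.25, adjusted p = 0.25), and by -2.55 without female 2. Against CD11c+ MBC 1 it was also lower in 5 of 6 animals, by -6.01 points (exact permutation p = 0.125, adjusted p = 0.25), and neither difference passed the test. The second was -3.80 without female 4, which gave 16 CD11c+ MBC 1 cells, and -2.86 with cells of any heavy chain.

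**Figure D1:**
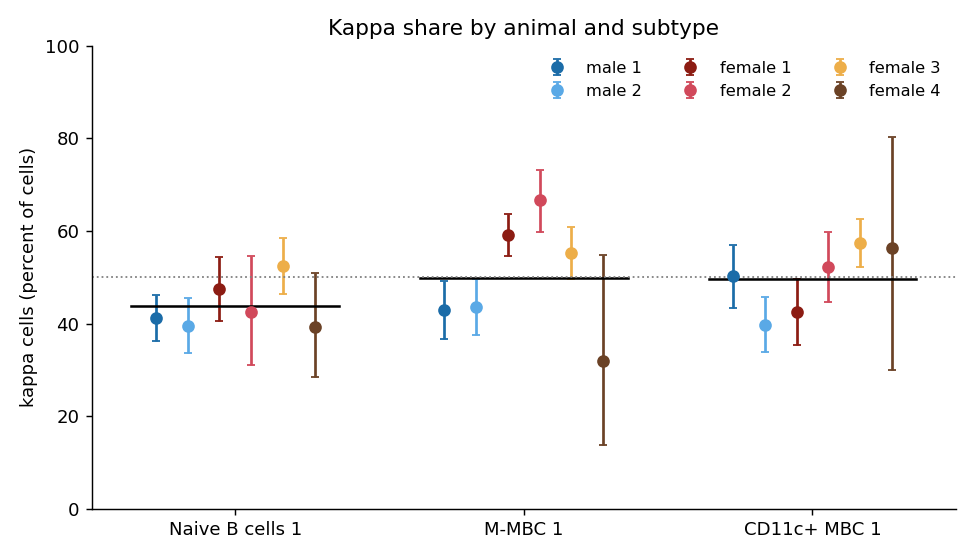
Kappa cells as a percentage of the cells that met the receptor rule, for each of 6 animals (points, with exact 95% binomial intervals) in 3 subtypes; black lines are means over animals and the dotted line marks 50%. In Naive B cells 1, 5 animals lay between 39.2 and 47.4% and female 3 at 52.5%.

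Kappa cells drew on 50 V genes and lambda cells on 47, and the 5 most used genes made up 30.4% of kappa cells and 27.4% of lambda cells. These are different genes, so their use is described within each class and was not tested. Family IGKV1 gave 57.3% ± 3.86 of kappa cells, IGKV2 24.0% ± 6.23 and IGKV3 15.3% ± 3.63 (mean over 6 animals ± SD). The 5 most used kappa genes were all of family IGKV1, namely IGKV1-25 (51 cells), IGKV1-32 (35), IGKV1-22 (31), IGKV1-74 (31) and IGKV1-18 (28). Animals differed in them. IGKV1-22 made up 18.1% of kappa cells in its highest animal and was not found in 2 animals, and IGKV1-18 reached 12.4% and was found in 3 animals. IGKV1-25 and IGKV1-32 were found in all 6, at 3.23 to 13.0% and 0.952 to 9.68%.

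Lambda cells were spread over more families of similar size. IGLV3 gave 28.0% ± 4.48 of lambda cells, IGLV1 27.1% ± 4.17, IGLV2 21.1% ± 1.77 and IGLV5 7.66% ± 3.19. The most used lambda genes were IGLV3-36 (45 cells), IGLV1-85 (44), IGLV3-34 (40), IGLV2-38 (38) and IGLV3-44 (33), of which all but IGLV1-85 were found in every animal. Many V genes have near-identical copies, so calls of a single V gene are uncertain.

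Of the kappa J segments, IGKJ4 (159 cells), IGKJ2 (154) and IGKJ1 (151) were used about equally, IGKJ3 stood in 114 cells and IGKJ5 in 1 cell of 579. Of the lambda J segments, IGLJ3 stood in 219 cells, IGLJ1 in 193, IGLJ2A in 138, IGLJ2 in 110 and IGLJ6 in 69. Lambda J segments lie beside constant genes in the locus, and the contigs show which were joined. IGLJ1 was called with IGLC1 in 99.5% of its cells and IGLJ2 and IGLJ3 with IGLC2 in 100%. IGLJ6 was called with IGLC1 in 53.6% and with IGLC6 in 46.4%. IGLC2 made up 66.5% ± 6.61 of lambda cells per animal, IGLC1 30.2% ± 5.82 and IGLC6 3.21% ± 2.98.

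Light CDR3 regions were shorter in kappa cells than in lambda cells in every animal. Mean lengths, with both conserved residues counted, were 10.9 ± 0.0303 amino acids in kappa cells and 12.4 ± 0.0963 in lambda cells (SD, n = 6 animals). The highest kappa animal (10.97) lay below the lowest lambda animal (12.3), so the classes did not overlap. Kappa lengths were narrow, with 86.4% of cells at 11 amino acids and 10.7% at 10. Lambda lengths were spread, with 45.8% of cells at 13, 34.3% at 12 and 14.3% at 11. The difference of -1.44 amino acids ranged from -1.64 to -1.38 over animals and had the smallest p that 6 animals allow in the exact two-sided sign-flip permutation test (p = 0.03125). Adjusted over the 10 receptor and cell measures tested the p was 0.156, so with 6 animals this measure did not pass 0.05.

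The heavy CDR3, which the choice of light chain did not set, also had a lower mean length in kappa cells of all 6 animals, by a small margin. Kappa and lambda means were 16.5 and 16.9 amino acids in male 1, 16.6 and 16.8 in male 2, 16.6 and 16.8 in female 1, 15.9 and 16.7 in female 2, 16.7 and 16.7 in female 3, and 15.7 and 16.6 in female 4. The animals' kappa means spread over 15.7 to 16.7 and their lambda means over 16.6 to 16.9, so the ranges overlapped slightly. The mean over animals was 16.4 ± 0.412 in kappa cells and 16.8 ± 0.0862 in lambda cells (SD, n = 6), a difference of -0.40 amino acids that ran from -0.904 in female 4 to -0.0367 in female 3 (exact permutation p = 0.03125, adjusted p = 0.156). Both largest differences came from female 2 and female 4, which had 31 kappa cells each. Over single cells of all animals the kappa median was 16 and the lambda median 17, with quartiles of 14 and 19 in both classes. Medians within an animal did not follow the means throughout. They were equal in male 1, male 2 and female 3, and lower in kappa cells of female 1 and female 2. In female 4, which had the largest difference of means, the kappa median was higher (16.0 against 15.5). Lengths of 12 or fewer were found in 11.7% of kappa cells and 9.60% of lambda cells, and lengths of 20 or more in 19.7% and 21.8%.

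The mean heavy CDR3 difference was not smaller in the subsets of cells tried, but fewer animals shared its direction. Within cells that used IGHJ4, the most common heavy J segment, kappa cells averaged 15.3 ± 0.728 amino acids and lambda cells 15.8 ± 0.163. The difference there was -0.526 and negative in 4 of 6 animals (exact permutation p = 0.188). Without IGHJ6, which is longer than the other segments, it was -0.404 and negative in 5 of 6 (exact permutation p = 0.156). In cells with an IGHM contig it was -0.521 and negative in 5 of 6 (exact permutation p = 0.0625). These subsets were chosen after seeing the data. In M-MBC 1 the heavy CDR3 difference was -0.18 ± 0.377 (SD, n = 5 animals, exact permutation p = 0.438) and in CD11c+ MBC 1 -0.348 ± 0.54 (n = 5, exact permutation p = 0.25). The difference in Naive B cells 1 was not distinguishable from either, with changes of -0.12 against M-MBC 1 (-0.609 to 0.662 over 5 animals, exact permutation p = 0.688, adjusted p = 0.917) and 0.0477 against CD11c+ MBC 1 (-0.49 to 0.875, exact permutation p = 0.938, adjusted p = 0.938). The light CDR3 difference was -1.37 in M-MBC 1 and -1.41 in CD11c+ MBC 1. That in Naive B cells 1 minus these was -0.0718 ± 0.175 and -0.037 ± 0.0666 (SD, n = 5 animals). The same limit holds for this test (adjusted p = 0.875 for both, exact permutation test over 4 comparisons).

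**Figure D2:**
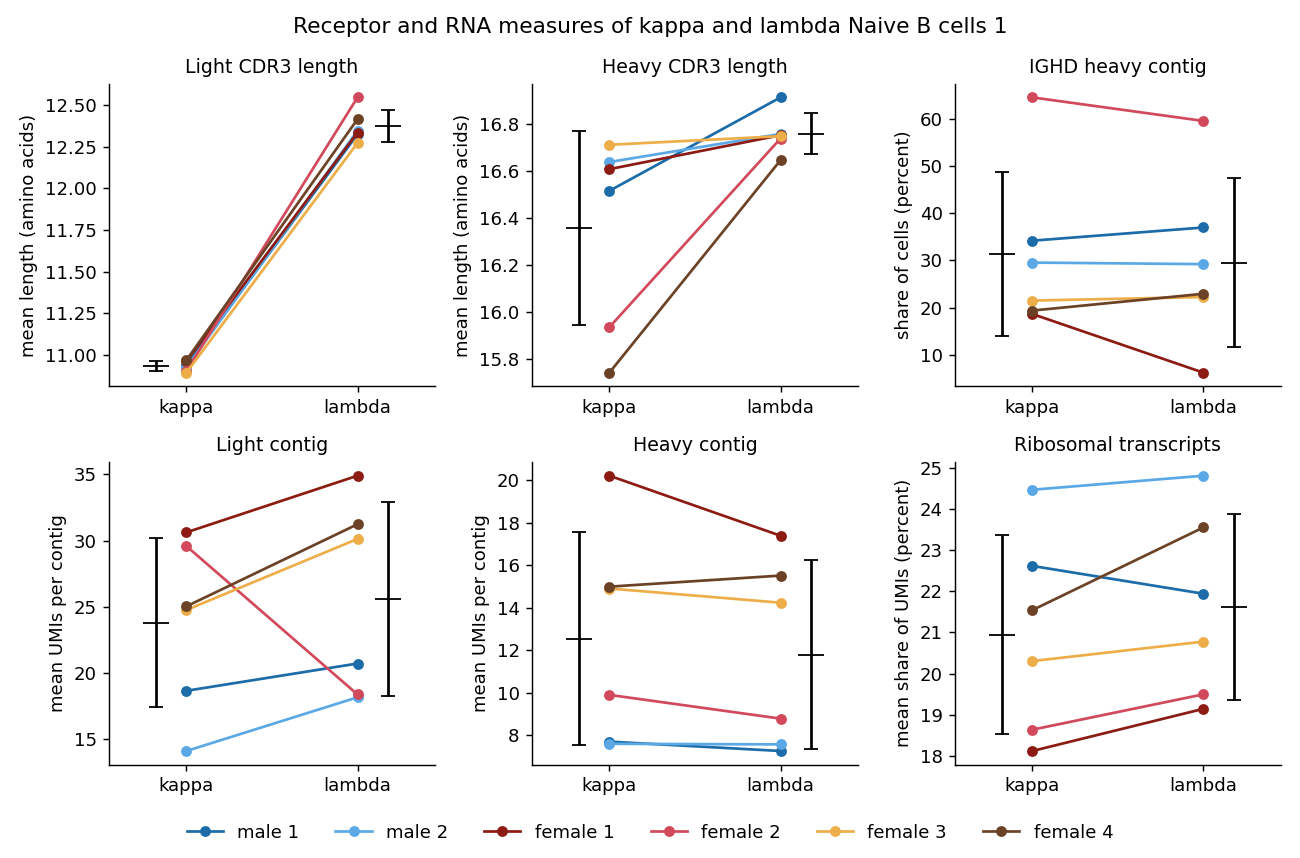
Mean over cells of 6 measures for each animal in kappa cells (left) and lambda cells (right), joined by a line per animal; black bars are the mean ± SD over 6 animals, and the axes do not start at 0. Light and heavy CDR3 lengths are lower in kappa cells of all 6 animals, and the light contig of female 2 goes against the other 5 animals.

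Like both CDR3 lengths, none of the other 8 measures had a difference that passed the test, and each pointed both ways over the 6 animals. Both CDR3 lengths had the smallest p possible and still an adjusted p of 0.156. A measure with a larger p could therefore not pass, and its failure does not show that the classes are equal. The net charge of the heavy CDR3 was -0.619 ± 0.0958 in kappa cells and -0.589 ± 0.148 in lambda cells (difference -0.0297, range -0.118 to 0.177, exact permutation p = 0.531, adjusted p = 0.66). Cells whose heavy contig carried IGHD rather than IGHM made up 31.3% ± 17.4 of kappa cells and 29.5% ± 17.9 of lambda cells (exact permutation p = 0.594, adjusted p = 0.66). The animals differed far more than the classes. The share was 64.5% in kappa and 59.5% in lambda cells of female 2, and 18.6% and 6.19% in those of female 1. A heavy contig was supported by 12.6 ± 5.01 UMIs (unique molecular identifiers, which count captured transcripts) in kappa cells and 11.8 ± 4.44 in lambda cells. A light contig was supported by 23.8 ± 6.37 UMIs in kappa cells and 25.6 ± 7.34 in lambda cells. The difference was negative in 5 animals, from -6.20 to -2.06, and 11.2 in female 2 (exact permutation p = 0.531, adjusted p = 0.66).

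RNA content was measured in the same cells. UMIs per cell averaged 4881 ± 1098 in kappa cells and 4620 ± 1017 in lambda cells (difference 261, -316 to 711 over animals, exact permutation p = 0.25, adjusted p = 0.417). At a fixed 2000 UMIs per cell, 963 ± 59.3 genes were detected in kappa cells and 952 ± 51.8 in lambda cells, which left out 6 kappa and 14 lambda cells with fewer UMIs. The unthinned values were 1793 ± 374 genes in kappa cells and 1704 ± 321 in lambda cells. Mitochondrial transcripts made up 2.5% ± 0.663 of the UMIs of kappa cells and 2.49% ± 0.763 of those of lambda cells. Ribosomal protein transcripts made up 20.9% ± 2.42 in kappa cells and 21.6% ± 2.25 in lambda cells, lower in kappa cells of 5 of 6 animals (difference -0.672 percentage points, -2.01 to 0.675, exact permutation p = 0.125, adjusted p = 0.312). The mean difference was -1.09 in the 4 females and 0.167 in the 2 males, and -0.405 over all animals but female 4.

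No heavy V or J gene was called as used more in either class. Of 30 heavy genes with 20 or more cells (23 V, 7 J), 0 passed an adjusted p of 0.05 in edgeR's quasi-likelihood test on cells per animal (0% called), and 1 had an unadjusted p under 0.05 (3.33%). That gene was IGHV1S2, with 5 kappa and 23 lambda cells (log2 difference -1.86 ± 0.71 SE, edgeR adjusted p = 0.282), and its share was lower in kappa cells of 2 animals and equal in the others. The most used V gene, of family IGHV4, stood in 45 kappa and 39 lambda cells (log2 difference 0.39 ± 0.35). The next were IGHV4-173 (29 and 40, -0.01 ± 0.37), IGHV3-103 (28 and 24, 0.54 ± 0.39), IGHV3-182 (22 and 26, 0.08 ± 0.40) and IGHV4-127 (23 and 23, 0.35 ± 0.40). IGHJ4 was used by 49.9% ± 7.74 of kappa cells and 52.3% ± 3.12 of lambda cells (log2 difference -0.02 ± 0.09, the most precise of the set). The other 6 J genes had log2 differences between -0.16 (IGHJ3, 21 kappa and 31 lambda cells) and 0.20 (IGHJ2, 28 and 30). IGHJ5-1 (100 and 120 cells, 0.11), IGHJ6 (72 and 97, -0.12), IGHJ5-2 (29 and 31, 0.15) and IGHJ1 (30 and 38, -0.02) lay between.

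The UMI counts of the expression libraries carried the same split. The rule read the receptor libraries only, but both come from the same cells. The split in IGKC therefore follows from the choice of class and is no separate finding. IGKC, the kappa constant gene, had 455 to 1105 CPM (UMIs of the gene relative to the library's total, scaled to CPM with edgeR's correction for composition) in kappa sums, with a median of 641, and 0 to 58.9 CPM in lambda sums, with a median of 22.0. The lowest kappa animal lay above the highest lambda animal. In all, 462 of 579 kappa cells (79.8%) held an IGKC UMI, against 32 of 729 lambda cells (4.39%), at a median of 4360 and 3989 UMIs per cell. In female 4, 0 of 48 lambda cells held an IGKC UMI. Among 146 cells annotated as contamination that had no receptor contig the share was 21.2%, at a median of 918 UMIs per cell. The cell types of that cluster are not given, so its share is only a rough reference. The 32 lambda cells held 96 IGKC UMIs, at most 9 in a cell, and the 462 kappa cells 1781, at most 17, and the source of the UMIs in lambda cells was not tested. IGHM, the heavy constant gene of IgM, which both classes share, had 574 to 1095 CPM in kappa sums and 605 to 1186 in lambda sums (log2 difference 0.00 ± 0.06 SE, edgeR adjusted p = 1.00).

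With immunoglobulin genes and identifiers without a gene name kept in the test, 80 of 7221 features differed (1.11% called, edgeR's quasi-likelihood test, adjusted p under 0.05). They were 12 immunoglobulin genes, 66 unnamed identifiers and 2 other named genes. The class was chosen on the light chain, so the calls of light chain genes describe the rule and are no finding. IGKC, IGKV1D-42 (log2 difference 6.56), IGKV4-1 (5.96) and IGKV6D-41 (5.76) were higher in kappa cells. IGLV11-55 (-9.16), IGLV3-27 (-8.25), IGLV10-54 (-6.68), IGLV7-43 (-6.42), IGLV3-10 (-6.10), IGLV4-69 (-6.01) and IGLV9-49 (-4.61) were lower, and so was the heavy gene IGHV3-49 (-0.995, adjusted p = 0.0169, edgeR), which the rule did not use. Its p was adjusted over a list that held the light chain calls, which makes the threshold easier to pass. The test of heavy contigs called 0 of 30 V and J genes, none of them of that name. Of the unnamed identifiers 41 were higher in kappa cells (median log2 difference 6.33) and 25 lower (median -6.56).

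The 2 unnamed identifiers with the smallest p in each direction are given with the contig V gene whose cells held the most of their UMIs. ENSMMUG00000059850 had 1580 UMIs in kappa cells and 12 in lambda cells. It was found in 94.1% of the 17 cells with an IGKV3-42 contig, against 13.6% of the other members. Those 17 cells held 32.1% of its UMIs, so most lay in cells with other V genes. ENSMMUG00000062328 had 1452 UMIs in kappa cells and 8 in lambda cells. Of all its UMIs 67.0% came from the 31 cells with an IGKV1-74 contig. Each of these cells held it, against 7.28% of the other members. ENSMMUG00000058581 had 50 UMIs in kappa cells and 5147 in lambda cells. It was found in all 38 cells with an IGLV2-38 contig and in 14.4% of the others. Those 38 cells held 28.3% of its UMIs, so here too most lay in cells with other V genes. ENSMMUG00000056950 had 7 UMIs in kappa cells and 2255 in lambda cells. Of its UMIs 51.5% came from the 44 cells with an IGLV1-85 contig. Each of these cells held it, against 8.15% of the other members. For these 4 identifiers the classes did not overlap, and unnamed features were left out of the test of other genes.

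**Figure D3:**
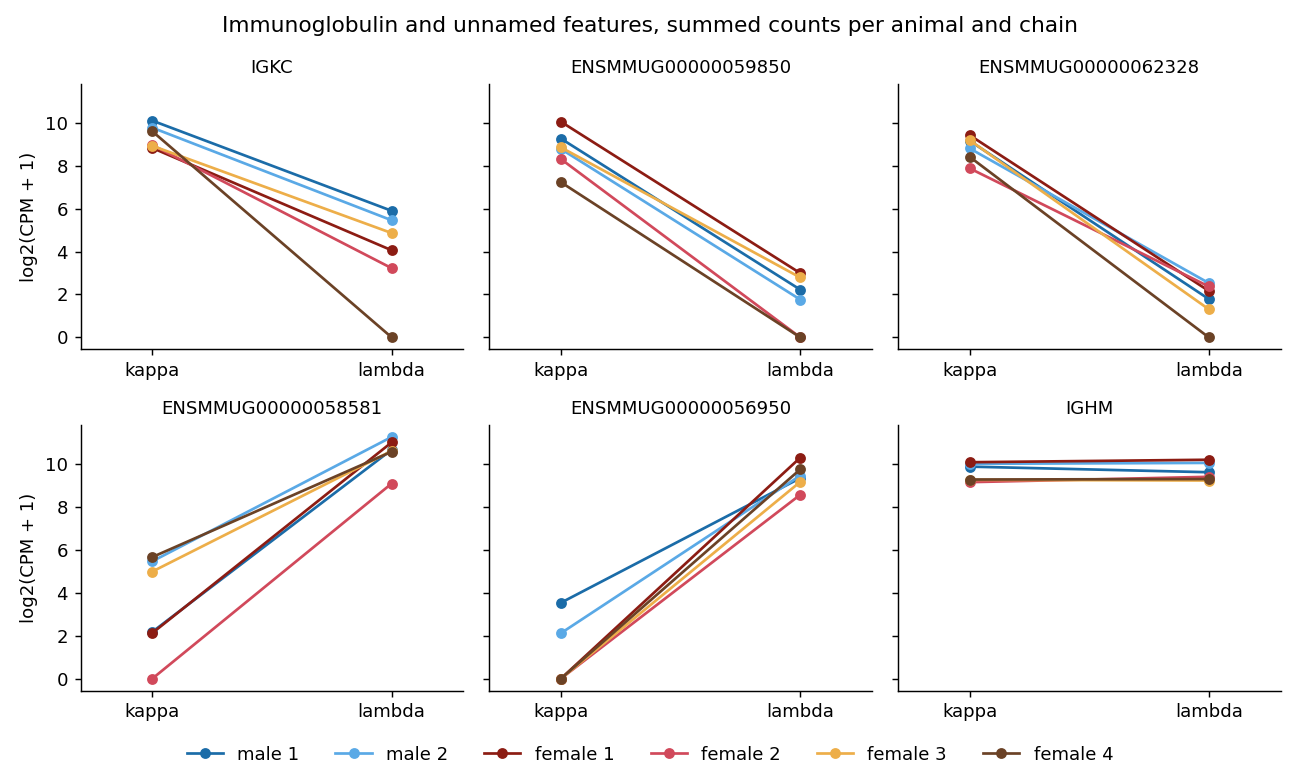
Level of IGKC, 4 unnamed identifiers and IGHM in counts summed per animal and class, as log2(CPM + 1), in kappa cells (left) and lambda cells (right), with a line per animal. IGKC and 2 identifiers are high in kappa cells, the 2 others high in lambda cells, and IGHM is level.

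Outside the immunoglobulin genes no named gene was called between the classes. Of 6848 named genes tested, 0 passed an adjusted p of 0.05 in edgeR's quasi-likelihood test with the animal as a block (0% called, smallest adjusted p = 0.268), and DESeq2 called 0. At an unadjusted p under 0.05 there were 327 genes by edgeR (4.78%), 150 higher (2.19%) and 177 lower (2.58%) in kappa cells, and 45 by DESeq2. The median log2 difference was -0.00, and the median SE of a gene was 0.207. For 6160 genes (90.0%) the 95% interval of edgeR's fit lay within 1 log2 unit of 0. For all 501 genes whose mean log2 CPM reached 8 it lay within 0.5. Smaller differences, and those of weakly expressed genes, were not detectable at this depth. The SEs and intervals are those of the fit and can be narrower than the spread between animals. GZMB, at -1.11 ± 0.35, ran from -4.49 in female 4 to 2.94 in male 2. EGR1, at 0.50 ± 0.15, ran from -0.75 in male 2 to 1.35 in female 1. The intervals therefore do not show that the classes are equal, and fits without 1 animal have the same limit. The sums held 31 to 230 cells and 169232 to 862843 UMIs of all features each, and 145284 to 711732 UMIs of the genes tested.

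**Figure D4:**
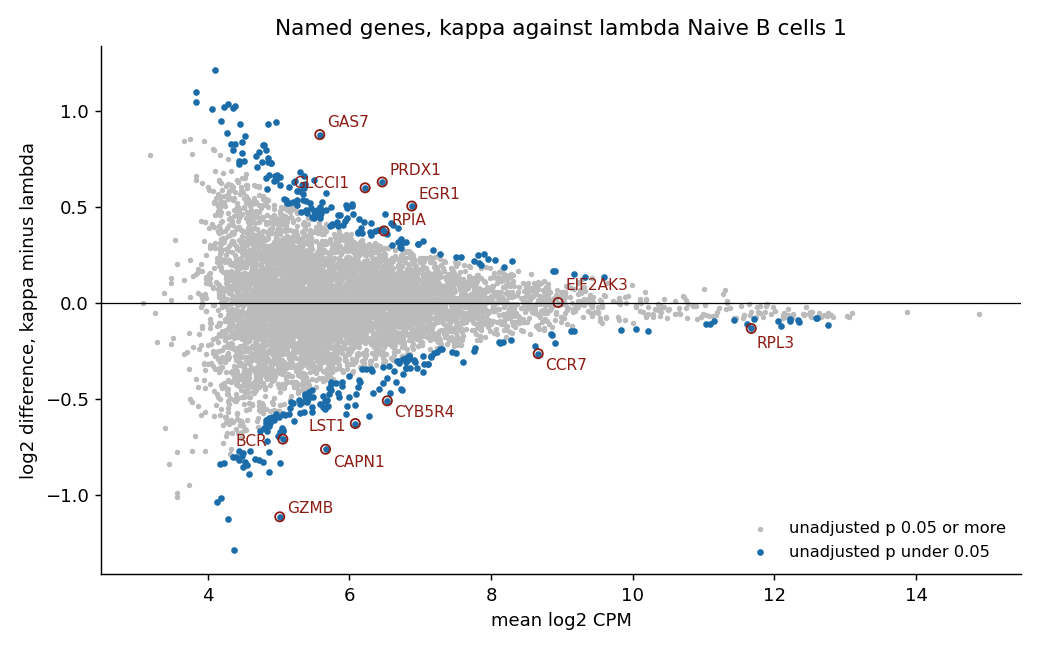
Log2 difference, kappa minus lambda, against mean log2 CPM for 6848 named genes; blue points have an unadjusted p under 0.05 and circles mark genes named in the text. No gene passed the adjusted threshold, and the spread narrows with expression.

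The genes with the smallest p did not pass the test and are given as values. GAS7, which encodes a cytoskeleton-associated adaptor, had 29.6, 69.3 and 91.2 CPM (lowest, median and highest animal) in kappa sums and 25.8, 32.1 and 44.2 in lambda sums. It was higher in kappa cells of all 6 animals, with overlapping ranges (log2 difference 0.88 ± 0.22 SE, edgeR adjusted p = 0.268). PRDX1, a peroxide-reducing enzyme, had 65.2, 106 and 142 CPM in kappa sums and 41.5, 68.2 and 103 in lambda sums. Its difference was 0.63 ± 0.16 and lay between 0.44 and 0.76 in every animal (edgeR adjusted p = 0.268). A PRDX1 UMI was found in 29.9% of kappa cells (exact 95% interval 26.2 to 33.8%) and 18.7% of lambda cells (15.9 to 21.7%). The intervals pool the cells of all 6 animals and cover counting error only, not the spread between animals. Kappa cells also held more UMIs, at a median of 4360 per cell against 3989. With the immunoglobulin and unnamed features in the test, both genes passed (adjusted p = 0.0109 for PRDX1 and 0.0151 for GAS7, edgeR). Their differences hardly moved (0.63 and 0.87 on the log2 scale), while the list over which p was adjusted then held the 12 immunoglobulin and 66 unnamed features as calls.

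In the other subtypes GAS7 differed by -0.10 (M-MBC 1) and -0.11 (CD11c+ MBC 1), and the difference from Naive B cells 1, 1.00 and 1.01 on the log2 scale, did not pass the test (adjusted p = 0.482 and 0.232, edgeR, 5 animals).

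GLCCI1, a glucocorticoid-induced gene, had 57.5, 87.2 and 109 CPM in kappa sums and 24.6, 56.0 and 72.9 in lambda sums, and was higher in kappa cells of all 6 animals (0.60 ± 0.17, edgeR adjusted p = 0.893). Being higher in all 6 animals was shared by 132 of the 6848 genes (1.93%), and being lower in all 6 by 111 (1.62%). In the other direction CAPN1, a calcium-dependent protease, had 15.5, 29.8 and 68.4 CPM in kappa sums and 34.5, 50.6 and 89.2 in lambda sums (-0.76 ± 0.22, lower in 5 of 6, edgeR adjusted p = 0.893). LST1, a leukocyte-specific transcript of the MHC region, had 3.88, 59.1 and 103 CPM in kappa sums and 1.42, 109 and 143 in lambda sums (-0.63 ± 0.19, lower in 5 of 6, edgeR adjusted p = 0.928). LST1 differed by animal more than by class, with at most 5.53 CPM in the sums of both males. CYB5R4, a cytochrome b5 reductase, had 57.7, 71.1 and 79.0 CPM in kappa sums and 82.9, 107 and 118 in lambda sums (-0.51 ± 0.15, edgeR adjusted p = 0.928). Its highest kappa animal lay below its lowest lambda animal, as for 4 of the 6848 genes (0.0584%) in that direction and 0 in the other (0%).

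Genes beside the light chain loci were taken as lists of their own. Beside the kappa locus, RPIA, an enzyme of the pentose phosphate pathway, had 39.9, 96.9 and 188 CPM in kappa sums and 9.85, 71.1 and 109 in lambda sums. It was higher in kappa cells of 5 of 6 animals, male 1 being the exception (0.38 ± 0.16, edgeR adjusted p = 0.995). EIF2AK3, a kinase of the unfolded protein response, had 222, 518 and 591 CPM in kappa sums and 192, 544 and 592 in lambda sums, with a difference of 0.00 ± 0.07. KRCC1 differed by -0.21 ± 0.30. In M-MBC 1 the RPIA difference was 0.55 ± 0.16 (adjusted p = 0.401, edgeR) and in CD11c+ MBC 1 -0.19 ± 0.17, and neither differed from Naive B cells 1 after adjustment (adjusted p of the difference 0.963 and 0.984, edgeR).

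Near the lambda locus, BCR, which encodes a signalling protein first known from a leukaemia fusion and is unrelated to the B cell receptor, had 0, 22.2 and 28.5 CPM in kappa sums and 20.6, 37.4 and 53.8 in lambda sums. It was lower in kappa cells of all 6 animals (-0.71 ± 0.28, edgeR adjusted p = 0.995), with 46 UMIs in kappa cells and 91 in lambda cells. The kappa sum of female 4 held no BCR UMI. VPREB1, a surrogate light chain gene that lies within the lambda locus, differed by -0.45 ± 0.33 and was at 0 in both classes of female 2. VPREB3 differed by 0.03 ± 0.22 and CHCHD10 by -0.04 ± 0.14. IGLL1, the partner of VPREB1 in the surrogate light chain, had 0 UMIs in all members. Of the 3 kappa neighbours and 4 lambda locus genes tested, 0 were called in either direction.

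**Figure D5:**
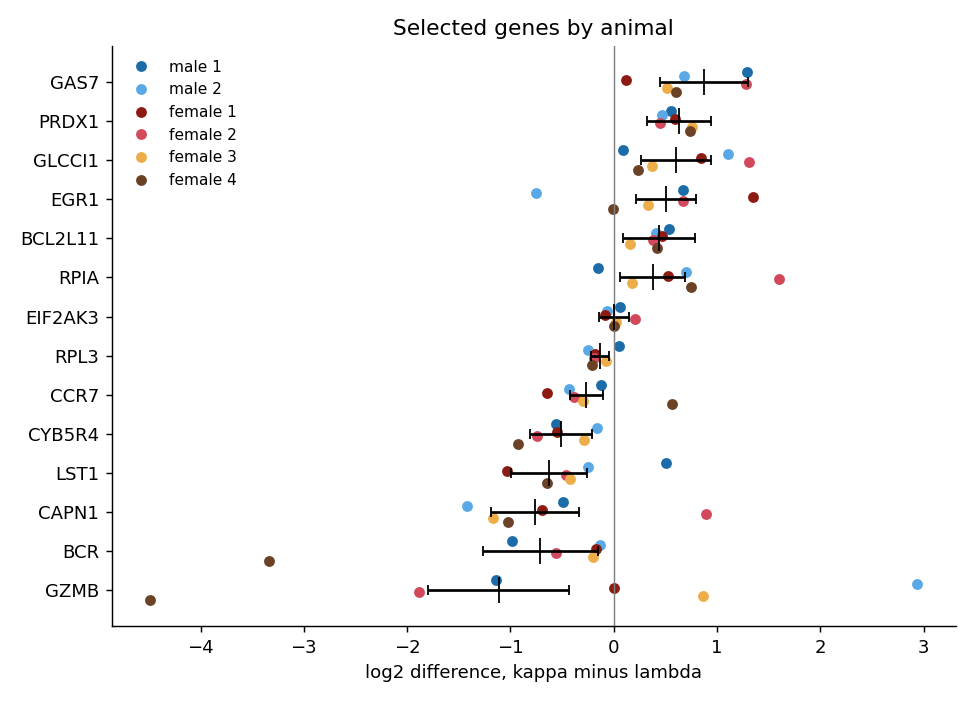
Log2 difference, kappa minus lambda, of 14 genes in each of 6 animals (colored points, from CPM with a prior count of 2) and in the fit over all animals (black bar, with its 95% interval). PRDX1, GAS7, GLCCI1 and BCL2L11 lie above 0 in all 6 animals, CYB5R4 and BCR below 0, and GZMB points both ways.

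Gene lists of B cell biology showed no called gene in either direction, against a background of 0 of 6848 genes, so they are described by their medians and the member with the smallest p. Recombination and light chain choice genes (17 tested) had a median log2 difference of 0.05, and the lowest p belonged to NFKB1, a NF-kB subunit, at 525 to 842 CPM in kappa sums and 431 to 785 in lambda sums (0.13 ± 0.07). BCR signalling genes (19 tested) had a median of 0.06, with 12 of them positive and 0 at an unadjusted p under 0.05. The naive list (16 tested) had a median of -0.03, with CCR7, the receptor that guides cells into lymph nodes, at 146, 379 and 849 CPM in kappa sums and 232, 417 and 1108 in lambda sums (-0.26 ± 0.08, lower in 5 of 6, edgeR adjusted p = 0.928). Homing genes (12 tested) had a median of -0.08, 9 of them negative. Transitional genes (7 tested) had a median of -0.04 with SOX4 at 0.27 ± 0.18, marginal zone genes (10) one of 0.01 with HES1, a Notch target, at 0.48 ± 0.25, and memory genes (8) one of -0.09 with S100A6 at -0.25 ± 0.11. SOX4 was at 0.13 and HES1 at 0.29 without female 3, and S100A6 at -0.093 without female 1. Survival genes (11) had a median of -0.02, with BCL2L11, which encodes the pro-apoptotic protein BIM, higher in kappa cells of all 6 animals (27.6, 53.3 and 150 CPM in kappa sums, 18.7, 43.1 and 102 in lambda sums, 0.44 ± 0.18, edgeR adjusted p = 0.995).

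Antigen presentation genes (9 tested) had a median of -0.06 with IFI30, a lysosomal reductase, at 0.14 ± 0.07, and interferon response genes (13) one of 0.02 with IFIT2 at 0.38 ± 0.27. IFI30 was at 0.049 without female 1 and IFIT2 at 0.21 without female 2. Secretory and unfolded protein genes (17) had a median of 0.06, with SSR4, a translocon-associated subunit, lower in kappa cells of all 6 animals (125 to 234 CPM in kappa sums, 172 to 282 in lambda sums, -0.24 ± 0.10). Of the 12 genes of the cell cycle list 11 are in the table and 2 could be tested, with STMN1 at 0.16 ± 0.20, and at 0.0029 without male 1. Of 18 ribosomal protein genes tested, 17 had a negative difference, with a median of -0.06, against a median of -0.00 over all 6848 genes. At an unadjusted p under 0.05 in edgeR's test 6 of the 18 were lower, against 177 of the 6848 genes (2.58%), and 0 were called. RPL3 was the member with the smallest p, at 2353, 3023 and 3855 CPM in kappa sums and 2679, 3314 and 4521 in lambda sums (-0.13 ± 0.04, lower in 5 of 6, edgeR adjusted p = 0.928). The number with a negative difference was between 16 and 18 of 18 under every setting tried, DESeq2's scaling included (17). All settings reuse the same libraries, so they are not separate observations. Male 1 had the 1 positive RPL3 difference, and without it RPL3 (-0.18, edgeR adjusted p = 0.0158) passed the test, together with RPLP1, RPS21, RPS28 and KHDRBS2, which are in none of the lists. The members were measured in the same libraries, so their number is not a count of independent observations.

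EGR1, an immediate early factor induced by receptor signals, led the list of anergy and signal strength genes (12 tested, median -0.04). Its CPM in kappa and lambda sums were 109 and 66.6 in male 1, 116 and 199 in male 2, 282 and 108 in female 1, 34.2 and 19.7 in female 2, 79.1 and 61.8 in female 3, and 123 and 123 in female 4. It was higher in kappa cells of 4 animals, lower in male 2 and level in female 4 (0.50 ± 0.15, edgeR adjusted p = 0.893). An EGR1 UMI was found in 16.2% of kappa cells (13.3 to 19.5%) and 13.2% of lambda cells (10.8 to 15.8%), and the kappa cells held up to 27 UMIs each. Without male 2 the difference was 0.81 and passed the test (adjusted p = 0.000799, edgeR), and without female 1 it was 0.12 and did not. By the same receptor rule EGR1 was higher in kappa than in lambda cells of M-MBC 1 (0.59 ± 0.10, adjusted p = 0.000239, edgeR, 5 animals). It was 1 of 5 genes called there. The smallest adjusted p among them belonged to HBA, a gene of the red cell marker list (1.88, adjusted p = 9.14e-06, edgeR). In CD11c+ MBC 1 EGR1 differed by 0.46 ± 0.19 (adjusted p = 0.994, edgeR). These subtypes come from the same animals and libraries, and the difference in Naive B cells 1 was not distinguishable from theirs (-0.04 and 0.08, adjusted p of the difference 0.995 and 0.996, edgeR).

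The interaction of class and subtype was called for 1 of 6670 genes against M-MBC 1 (0.015% called) and for 0 of 6850 against CD11c+ MBC 1 (0% called), with 314 and 337 genes at an unadjusted p under 0.05, in edgeR's test over 5 animals. DESeq2 was not run on it, and female 4 was left out for fewer than 10 cells in a class. That gene was LTB, which encodes lymphotoxin beta. In Naive B cells 1 LTB had 267, 539 and 721 CPM in kappa sums and 187, 601 and 743 in lambda sums (-0.08 ± 0.07), and in M-MBC 1 it was higher in kappa cells by 0.60 (adjusted p = 0.00246, edgeR). Within M-MBC 1, 5 of 7290 genes were called between the classes (0.0686%). They were HBA (1.88), FHIT (1.25), LTB (0.60), EGR1 (0.59) and JUN (0.42), all higher in kappa cells. Within CD11c+ MBC 1, 1 of 7223 was called (0.0138%), TRH, which was lower in kappa cells (-1.16).

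Markers of other cell types overlapped between the classes, and their part in the results was not tested. As CPM of named-gene counts, B cell markers (6 of 6 with a UMI) summed to 2811 to 5430 in kappa sums and 2764 to 5305 in lambda sums, MS4A1, which encodes CD20, at a median of 614 and 599. FCER2, a naive marker that encodes the low-affinity IgE receptor, was at a median of 498 and 514 CPM, and of the memory list COCH and CD70 had 1 and 3 UMIs in all members, while AHNAK had 1864, VIM 1460 and CRIP1 1444. The memory list summed to 1020 to 2194 CPM in kappa sums and 1159 to 2564 in lambda sums. Plasma cell markers (5 of 6) were at 248 to 455 and 202 to 534 CPM, largely from IRF4, with SDC1 at 0 and JCHAIN at 0.30 ± 0.27, which was 0.028 without female 1. T cell markers (10 of 10 with a UMI) summed to 55.2 to 364 CPM in kappa and 53.0 to 387 in lambda sums, with CD3D at 0.61 ± 0.35 (0.39 without male 1), and monocyte markers (7 of 7) to 12.8 to 70.2 and 5.34 to 61.0, with LYZ at 0.16 ± 0.32. Platelet and red cell markers (6 of 6) summed to 19.6 to 262 and 9.61 to 299 CPM, with HBA at -0.43 ± 0.34 (-0.24 without male 2). Natural killer cell markers (7 of 7) reached 65.5 CPM in kappa sums and 395 in lambda sums.

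GZMB, which encodes the protease granzyme B, was the 1 natural killer cell marker that could be tested. It differed by -1.11 ± 0.35 (edgeR adjusted p = 0.928), but 1 lambda cell of female 4 held 58 of the 101 lambda UMIs and 1 of male 1 held 17, and 1 kappa cell of male 2 held 13 of the 30 kappa UMIs. A GZMB UMI was found in 2.94% of kappa cells and 3.43% of lambda cells. Without male 2 the difference was -2.04 and passed the test (adjusted p = 0.000157, edgeR), and without female 4 it was -0.02.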

How the data were processed

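The authors deposited raw counts, 1 table of UMI counts per gene and cell, with a cell table of library, subtype, and mitochondrial and ribosomal percent, and per animal the receptor contigs with UMI counts and sequences. The submitters' processing notes name Seurat 5.0.1, R 4.3.1 and Cell Ranger 9.0.1, and the genome build, annotation and receptor reference are not given in the sources used here. All 28676 contigs are marked productive, per the file headers and values, so measures of non-productive contigs were not made. Columns without a sample number 0. All cells carry the authors' singlet call, and no doublet caller was run. Of the Naive B cells 1 that failed the rule, 57 had no contig, 76 no heavy contig, 58 no light contig, 88 had 2 light contigs (14 of them kappa with lambda), 19 had 2 heavy contigs and 8 no IGHM or IGHD constant gene. Barcodes shared between libraries touch 2 cells, 1 of them a member.

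For each animal, UMI counts of the kappa and of the lambda cells were added up, with 10 cells as the minimum. Named genes (16748 listed, 86.1% of member UMIs) were tested, while 23 immunoglobulin genes (0.153%) and 5813 identifiers without a name (13.7%), which matched none in the reference tables, were left out of library sizes, because the class defines part of them. Sums were tested with edgeR 4.0.16 in R 4.3.3 (filterByExpr, TMM, quasi-likelihood F test, animal as block, Benjamini-Hochberg over all genes, called at 0.05), with DESeq2 1.42.0 as an alternative. Classes of the same animal form the pairs. Receptor and cell measures are means over cells per animal, tested by the exact two-sided sign-flip permutation test (scipy 1.17.1, Python 3.11.15) with Benjamini-Hochberg adjustment. Single cells are not replicates, and animals give n. The fits were tested on simulated data.

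Named genes are, by rule, called genes that reach 4 in mean log2 CPM and have 1 direction in every animal (up to 8 per direction), the 3 with the smallest p where fewer are called, the member with the smallest p of each of 22 gene lists, the tested genes of the locus lists, the 5 most used V genes, all J genes and up to 3 sequences per class. IGHV1S2, IGLC genes, LTB, FHIT, JUN, TRH and the markers beside list sums were named after their values were seen. Of the genes that the rule names, 1 is not reported here. The members and lists were chosen with earlier results of these data known.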

Additional observations from a re-analysis of the deposited data

Results flagged for a closer look

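Of 42 values with 6 animals, 6 had 1 animal far from the other 5 by Dixon's test at 95%, where chance flags about 1 in 20. In UMIs per light contig the kappa minus lambda difference of female 2 was 11.2, against -6.20 to -2.06 in the others. In the net charge of the heavy CDR3 it was 0.177 in female 4, against -0.118 to -0.0177. In light CDR3 length it was -1.64 amino acids in female 2, against -1.45 to -1.38. BCR was at -3.34 on the log2 scale in female 4, whose kappa sum held no BCR UMI, against -0.99 to -0.14. CHCHD10 was at 1.47 in female 4, against -0.35 to 0.17, and LYZ at -1.47 in male 2, against 0.11 to 1.01. Female 2 and female 4 had the fewest member cells, with 31 kappa cells each.

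The class difference of LTB was lower in Naive B cells 1 than in M-MBC 1 by -0.71 on the log2 scale (edgeR's test of the interaction, adjusted p = 0.0399, 5 animals). In Naive B cells 1 the kappa sum of LTB was lower in 4 of 6 animals and higher in female 2 (319 CPM in kappa cells and 187 in lambda cells) and female 4 (721 and 660).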

How the results depend on the processing

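The count of 0 called genes became 80 with immunoglobulin and unnamed features kept and 2 in females only (EGR1 at 0.83, GZMB at -2.54). Leaving out 1 animal each gave 0 to 5. Without male 1 these were KHDRBS2 (-0.82), RPLP1 (-0.15), RPL3 (-0.18), RPS21 (-0.18) and RPS28 (-0.15), and without male 2 EGR1 (0.81) and GZMB (-2.04). DESeq2's scaling and test, no filter on low counts, light contigs of 5 or more UMIs and IGHM cells gave 0. The fit with no replicate block, which drops the pairing of classes within animals, also called 0 genes. Under that setting the unpaired exact permutation test gave both CDR3 lengths an adjusted p of 0.0216, with differences of -0.401 (heavy) and -1.44 (light).

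Small differences turned sign. The median over cells turned net charge to 0.167 and mitochondrial percent to -0.00382. Mitochondrial percent also turned with light contigs of 5 or more UMIs (-0.0387) and in females only (-0.000681). Among genes, CHCHD10 turned with DESeq2 (0.045), no block (0.052) and IGHM cells (0.078), EIF2AK3 with no filter (-0.0069) and IFIT2 with IGHM cells (-0.016). Dropping the block turned IGHV3-182 (-0.0065), IGHJ6 (0.045) and IGHJ3 (0.021).

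Leaving out 1 animal each turned the sign of some values within these ranges. They were -0.0939 to 0.0879 for mitochondrial percent, -0.356 to 2.84 for the share with IGHD, -0.14 to 0.077 for CHCHD10, -0.013 to 0.027 for EIF2AK3, -0.41 to 0.0039 for KRCC1, -0.035 to 0.44 for LYZ, -0.49 to 0.16 for VPREB1 and -0.11 to 0.19 for VPREB3. Among heavy genes they were -0.16 to 0.081 for IGHV4-173, -0.23 to 0.35 for IGHV3-182, -0.15 to 0.13 for IGHJ1, -0.30 to 0.19 for IGHJ3, -0.055 to 0.012 for IGHJ4, -0.087 to 0.27 for IGHJ5-1, -0.20 to 0.72 for IGHJ5-2 and -0.25 to 0.11 for IGHJ6. The causes were not tested. Settings on non-productive contigs were not run, as all contigs are productive.

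The sums of female 2 and female 4 rest on 31 to 48 cells, and leaving out either of them called 0 genes. With 6 animals the exact permutation test allows no p below 0.03125.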
